A study of Oryzias latipes with 6 samples.

Results

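The mitochondrial genome of medaka (Oryzias latipes), a small laboratory fish, is represented by 37 of the 24365 genes in the deposited table. They are all the rows placed on the chromosome MT, namely 13 protein genes, 2 ribosomal RNA (rRNA) genes and 22 transfer RNA (tRNA) genes, and no expression value entered the choice. RNA sequencing was done on testis of nphp4 mutant fish (nphp4-/-) and of wild-type fish, with 3 libraries per genotype, and each library pooled the testes of 2 individuals. The mutant is labelled as a gene knockout, without the lesion, and strain and age are not given in the sources used here. No treatment is named for either group. The protein made from nphp4, nephrocystin-4, sits where a cilium joins its basal body. Its transcript was at 8.26 ± 2.32 FPKM in mutant libraries and 17.6 ± 5.68 FPKM in wild-type libraries (SD, n = 3 each), so its mean was lower in the mutant, where it was still present. The log2 difference of nphp4 was -0.99 (unadjusted p = 0.00827, adjusted p = 0.436, limma).

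The vertebrate mitochondrial genome is a small circle read into long precursor RNAs from both strands. The protein and rRNA genes are mostly flanked by tRNA genes, and cutting out the tRNAs frees the mRNAs and rRNAs, after which most mRNAs receive a short poly(A) tail. All the encoded proteins are subunits of the respiratory chain or of ATP synthase, where they are assembled with many more subunits made from nuclear genes. In the testis, spermatids pack mitochondria into the midpiece of the sperm, beside the base of the flagellum.

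Levels are in FPKM, fragments per kilobase of gene and per unit of library size, as scaled by the authors, so levels of different genes are per length. Libraries held 13438879 to 16054354 reads on genes. Wild type 3 resembled the rest least, with a median correlation of its log2 values of 0.878, against 0.95 to 0.97 for the other 5. It also carried RNA of digestive organs. The 6 matched pancreas markers summed to 259, 2333 and 2488 FPKM in mutant 1, 2 and 3, against 1040, 1290 and 17157 FPKM in wild type 1, 2 and 3, and none of them was at 0. The intestine markers (8 genes for 4 matched names) summed to 2.29, 179 and 2.74 FPKM in mutant 1, 2 and 3, against 3.97, 2.72 and 2516 FPKM in wild type 1, 2 and 3. The testis was evident in every library, with 7 germ cell markers summing to between 2229 and 2619 FPKM in mutants and between 1895 and 2651 FPKM in wild types. Many of the results below that wild type 3 moves are given with and without it. For genes whose difference changed sign, the range over left-out libraries is given at the end.

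Mitochondrial transcripts made up 2.74%, 2.66% and 2.66% of the reads on genes in mutant 1, 2 and 3, against 2.57%, 2.23% and 3.40% in wild type 1, 2 and 3. The 3 mutant values lay close together and within the wild-type range, whose ends were wild type 2 and wild type 3. Without wild type 3, every mutant library was above both remaining wild types, an order whose share over all genes was not counted. On the FPKM scale the share was 5.02 ± 0.08% in the mutant and 4.81 ± 0.85% in wild type (SD, n = 3 each), a difference of 0.20 percentage points, which is smaller than the spread between wild-type libraries. That difference was 0.66 percentage points without wild type 3 and -0.19 without wild type 2. In bulk RNA, a different number of cells of a type and a different amount of RNA per cell cannot be told apart.

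**Figure D1:**
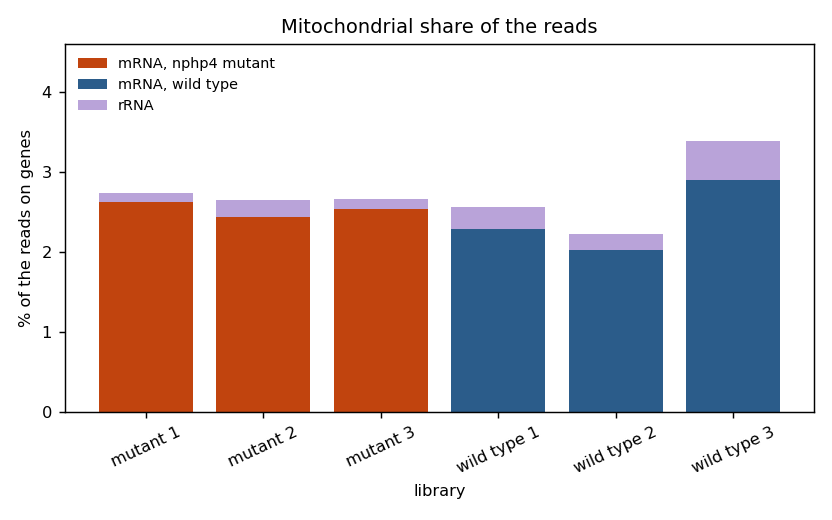
Percent of the reads on genes that fell on mitochondrial mRNAs (lower segment) and mitochondrial rRNAs (upper segment), 1 bar per library with mutants on the left. The mRNA segment is 2.44% to 2.62% in mutants and the rRNA segment 0.112% to 0.221%, and wild type 3 is the tallest bar with 2.91% mRNA and 0.487% rRNA.

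The limma test of mutant against wild type covered 23 of the 37 mitochondrial genes, those whose group mean reached 1 FPKM in the mutant or in wild type. After Benjamini-Hochberg adjustment over all 15203 tested genes it called none of them at a false discovery rate (FDR) under 0.05, where 9 genes (0.0592%) were called. limma-voom on the reads behind the FPKM values also called none of the 23. All 13 mRNAs and both rRNAs were above the filter in both groups. Of these 15 genes, 2 (13.3%) had an unadjusted p below 0.05, against 7.13% of all tested genes (3.32% higher and 3.82% lower). They were ND2, higher in the mutant, and the longer rRNA, lower in the mutant. The 3 further mitochondrial genes below that p are tRNA genes with few reads, of which 2 reached the filter through wild type alone. In none of the 15 were the groups free of overlap, which held for 14.0% of all tested genes. The median log2 difference was -0.01 over the 13 mRNAs and 0.01 over all tested genes.

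**Figure D2:**
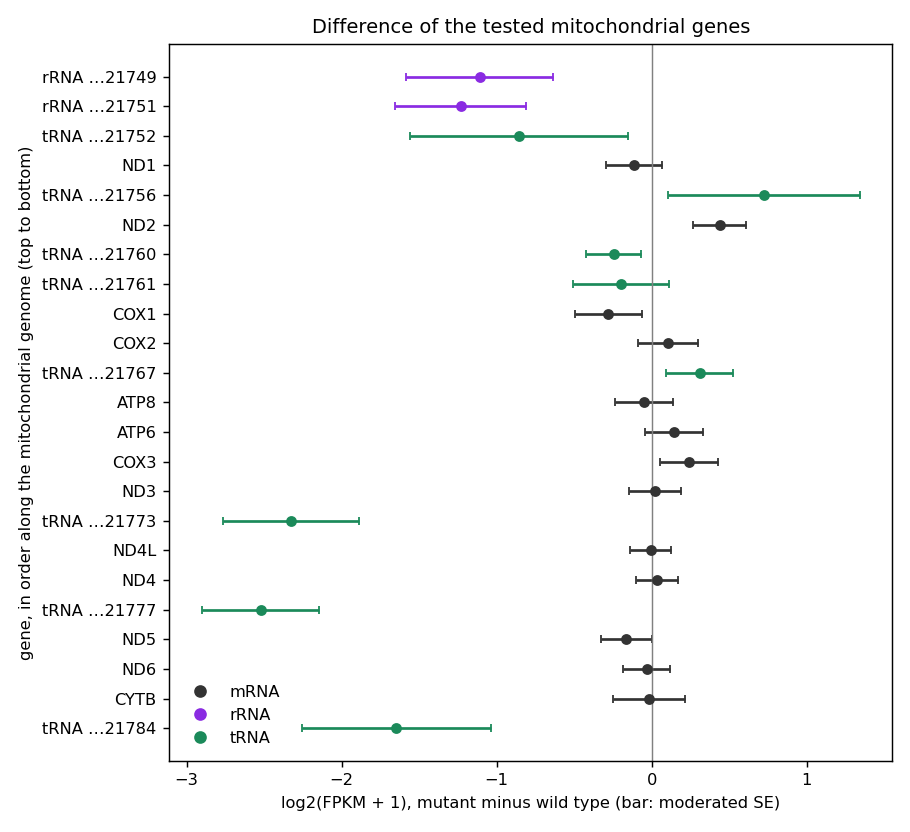
Difference of log2(FPKM + 1), mutant minus wild type, for the 23 tested mitochondrial genes in their order along the genome, with the moderated standard error as a bar. The 13 mRNAs lie between -0.28 and 0.44, while both rRNAs and 3 tRNA genes lie below -1.

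The mRNAs for cytochrome c oxidase, the last enzyme of the respiratory chain (complex IV), were the most abundant of the mitochondrial mRNAs. COX3, COX2 and COX1 were the top 3, in that order, in 6 of 6 libraries, followed by ATP6 and CYTB in each. Together the 3 COX mRNAs made up 75.2% to 78.5% of the mitochondrial mRNA FPKM of a library. COX3 (MT, 8773 to 9556, plus strand, in coordinates of the deposited table) ranked 2 among all genes by mean FPKM, COX2 (7167 to 7857) ranked 5 and COX1 (5455 to 7011) ranked 10. The order of the mRNAs followed neither position nor length.

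COX3 was at 12509, 10419 and 11072 FPKM in mutant 1, 2 and 3, against 8889, 7822 and 12663 FPKM in wild type 1, 2 and 3. Each mutant library was above wild type 1 and 2 and below wild type 3. The log2 difference was 0.24 (SE 0.19, adjusted p = 0.846, limma), and 0.44 without wild type 3 (adjusted p = 0.319, limma).

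COX1, whose protein holds the site of oxygen reduction, was at 3822, 4021 and 3874 FPKM in mutant 1, 2 and 3, against 4207, 3740 and 6774 FPKM in wild type 1, 2 and 3. The mutants fell between wild type 2 and wild type 1, with wild type 3 far above. The log2 difference was -0.28 (SE 0.22, adjusted p = 0.841, limma) and -0.02 without wild type 3. COX2, which receives electrons from cytochrome c, averaged 6466 ± 409 FPKM in the mutant and 6153 ± 1728 FPKM in wild type (SD, n = 3 each), with a log2 difference of 0.11 that was 0.32 without wild type 3.

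**Figure D3:**
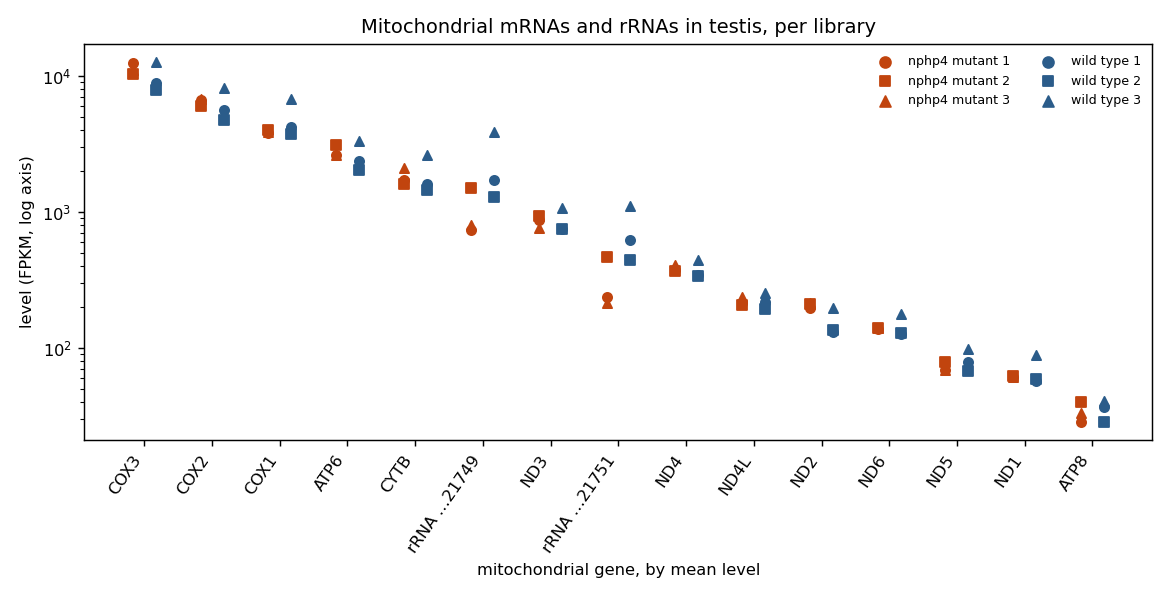
Level of the 13 mitochondrial mRNAs and 2 rRNAs in FPKM (log axis), ordered by mean, with the 3 mutant libraries left of the 3 wild-type libraries for each gene. Wild type 3 is the highest of the 6 libraries in 14 of the 15 genes, and the exception is ND2.

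Wild type 3 held the highest FPKM of all 6 libraries in 12 of the 13 mRNAs and in both rRNAs. Its mRNA levels were 1.23 to 1.70 times the mean of wild type 1 and 2, with a median of 1.47, against a median of 0.962 over all tested genes. These levels depend on the scaling of wild type 3, whose FPKM were divided by a total of 13693794, below its 15516979 reads on genes. In every other library the divisor was above the reads on genes. COX3 had 140310 reads in mutant 1 and 135950 reads in wild type 3, which had more reads on genes. Per read on genes, wild type 3 was thus not the highest library in COX3. With all libraries, the spread of the mutants was far smaller for several mRNAs. ND1 was at 61.4 ± 0.97 FPKM in the mutant and 68.0 ± 17.5 FPKM in wild type, and ND6 at 139 ± 1.79 FPKM in the mutant and 144 ± 29.0 FPKM in wild type (SD, n = 3 each). Wild type 3 set the wild-type spread of both. In wild type 1, 2 and 3, ND1 was at 57.2, 58.5 and 88.2 FPKM and ND6 at 125, 129 and 177 FPKM. The RNA of digestive organs was also highest in wild type 3, and its part in these levels was not tested.

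The 7 mRNAs for subunits of complex I, the NADH dehydrogenase, together held 1934 ± 55.4 FPKM in the mutant and 1896 ± 368 FPKM in wild type (SD, n = 3 each). Without wild type 3 the wild-type mean was 1683 FPKM, below every mutant library. Among them ND2 (4017 to 5067, plus strand) stood at 195, 209 and 215 FPKM in mutant 1, 2 and 3, against 131, 136 and 197 FPKM in wild type 1, 2 and 3. Wild type 3 lay just above mutant 1 and below mutant 2 and 3, so the groups overlapped through that library alone. The ratio of the means was 1.33, and the log2 difference of ND2 was 0.44 (SE 0.17, unadjusted p = 0.0381, adjusted p = 0.666, limma). Without wild type 3 it was 0.62 with an adjusted p of 0.193 in limma.

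ND3 was the most abundant complex I mRNA, at 855 ± 84.1 FPKM in the mutant and 852 ± 184 FPKM in wild type (SD, n = 3 each). ND4 averaged 382 ± 21.1 FPKM in the mutant and 375 ± 59.8 FPKM in wild type. ND4L (10044 to 10340), which shares its last 7 bases with the start of ND4 (10334 to 11714), averaged 219 ± 16.4 FPKM in the mutant and 220.5 ± 29.1 FPKM in wild type. ND5 (11932 to 13770) was at 72.0 ± 6.13 FPKM in the mutant and 81.5 ± 15.8 FPKM in wild type. With all libraries, the log2 differences of these 4 genes lay between -0.16 and 0.04, inside the spread between libraries.

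ND6 (13766 to 14287) is the only protein gene on the minus strand and shares 5 bases with the end of ND5 on the other strand. Whether reads were counted by strand is not given in the sources used here. The ratio of ND6 to ND5 lay between 1.77 and 2.04 in mutants and between 1.58 and 1.93 in wild types, and the groups overlapped. The log2 difference of ND6 was -0.03 (SE 0.15).

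CYTB, which encodes cytochrome b of complex III, was at 1730, 1614 and 2106 FPKM in mutant 1, 2 and 3, against 1605, 1460 and 2609 FPKM in wild type 1, 2 and 3. Its highest mutant and its highest wild-type value were those of mutant 3 and wild type 3, and the log2 difference was -0.02 (SE 0.23), or 0.24 without wild type 3. ATP6, the subunit of ATP synthase that forms the proton path, averaged 2784 ± 276 FPKM in the mutant and 2567 ± 662 FPKM in wild type (SD, n = 3 each), a log2 difference of 0.14, or 0.34 without wild type 3. ATP8 (7932 to 8099), the shortest protein gene with 168 bases, averaged 34.0 ± 5.72 FPKM in the mutant and 35.2 ± 6.13 FPKM in wild type. The last 10 bases of ATP8 are the first of ATP6 (8090 to 8772), and in vertebrates both proteins are made from a shared mRNA. The ratio of ATP8 to ATP6 was nevertheless 0.011 to 0.013 in mutants and 0.012 to 0.016 in wild types. How a read over both genes was assigned is not given in the sources used here.

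Relations between the mitochondrial mRNAs within a library do not depend on how libraries are scaled. Each mRNA was therefore also expressed as its share of the FPKM sum of the 13 mRNAs. In 4 of the 13 (30.8%) the shares of mutants and wild types did not overlap, 2 higher and 2 lower in the mutant, against 9.43% of all tested genes when each is divided by the same sum (2.05% higher and 7.39% lower). The sum includes the member itself, and these 4 were singled out after their values were seen. The 13 shares of a library make up the whole sum, so when the share of an mRNA is higher, the rest together are lower. Most genes behind the 9.43% are not bound in this way. The exact permutation test of 3 against 3 libraries cannot go below p = 0.1, so it was not run on these shares. A limma fit over all genes, with libraries scaled to equal mitochondrial mRNA sums and chosen after the data were seen, called none of the 4. In it the log2 difference was -0.37 for COX1 (unadjusted p = 0.0439, adjusted p = 0.941), 0.15 for COX3 (unadjusted p = 0.332), 0.35 for ND2 (unadjusted p = 0.174) and -0.20 for ND1 (unadjusted p = 0.459).

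COX1 made up 13.1%, 14.8% and 13.6% of the mitochondrial mRNA sum in mutant 1, 2 and 3, against 17.2%, 17.4% and 18.9% in wild type 1, 2 and 3. The lowest wild-type share was thus above the highest mutant share. The mean difference of the COX1 share was -4.01 percentage points and -3.48 without wild type 3. COX3 made up 42.8%, 38.3% and 39.0% in mutant 1, 2 and 3, against 36.4%, 36.4% and 35.4% in wild type 1, 2 and 3. Its mean share was 3.98 percentage points higher in the mutant, 3.64 without wild type 3 and 2.60 without mutant 1. The ratio of COX1 to COX3 was 0.347 ± 0.040 in the mutant and 0.495 ± 0.034 in wild type (SD, n = 3 each).

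The share of ND2 was 0.667%, 0.769% and 0.756% in mutant 1, 2 and 3, against 0.535%, 0.634% and 0.550% in wild type 1, 2 and 3. The share of ND1, which lies upstream of ND2 on the same strand with tRNA genes between, was 0.208%, 0.230% and 0.214% in mutant 1, 2 and 3, against 0.234%, 0.272% and 0.246% in wild type 1, 2 and 3. The groups did not overlap in either share, with ND2 the higher and ND1 the lower in the mutant. The sum is mostly COX mRNA, and the ratio of ND1 to a single other mRNA was free of overlap in 4 of 12 cases. The ratio of ND2 to ND1 was 3.20, 3.35 and 3.53 in mutant 1, 2 and 3, against 2.28, 2.33 and 2.23 in wild type 1, 2 and 3. Wild type 3 did not stand apart in this ratio, which was 3.36 ± 0.17 in the mutant and 2.28 ± 0.05 in wild type (SD, n = 3 each).

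Over all 78 pairs of mitochondrial mRNAs, the ratio did not overlap between the groups in 24 (30.8%), against 14.8% of all pairs of tested genes with a read in every library. For pairs of the 65 nuclear respiratory chain subunits tested it was 375 of 2080 (18.0%). The pairs share genes and are not independent. ND2 took part in 11 of the 24 and COX1 in 7, and among the 55 pairs with neither gene 7 (12.7%) did not overlap. These 2 genes were left out because they had the most such pairs, so a lower share among the rest follows in part from that choice.

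**Figure D4:**
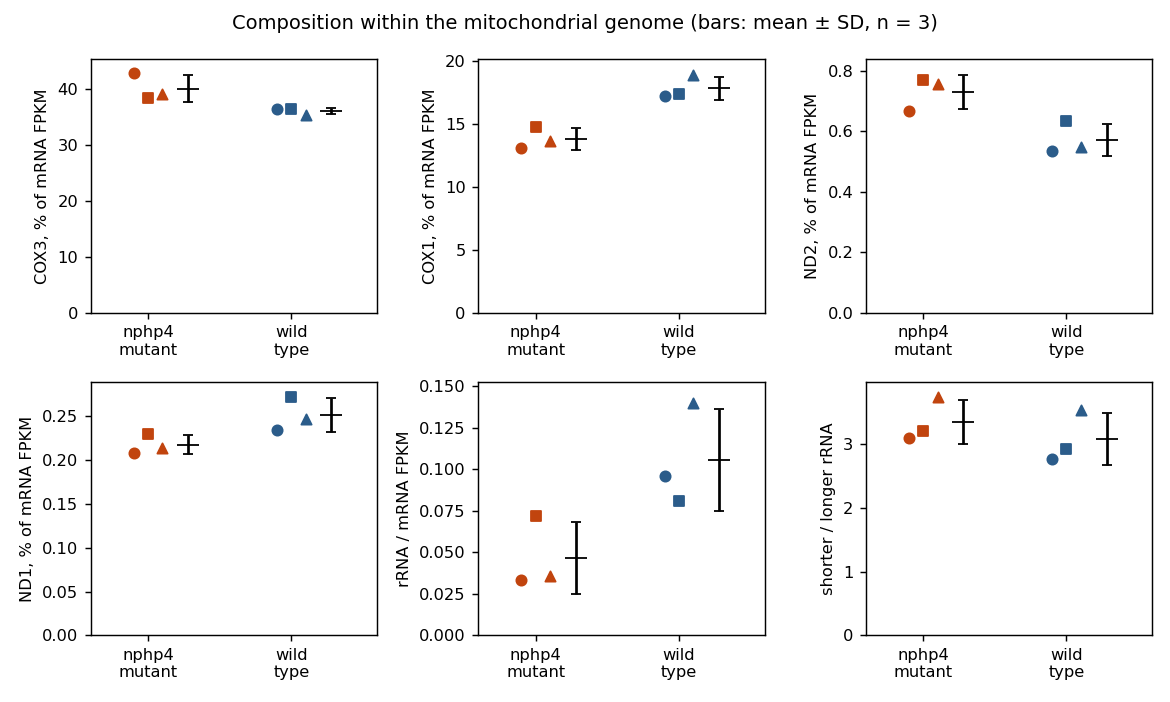
Share of COX3, COX1, ND2 and ND1 in the FPKM sum of the 13 mitochondrial mRNAs, ratio of rRNA to mRNA FPKM, and ratio of the shorter to the longer rRNA, with 1 point per library, mutants left, and mean ± SD (n = 3) as bars. The groups do not overlap in the first 5 panels and overlap in the last, where mutants span 3.10 to 3.74 and wild types 2.77 to 3.54.

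The rRNA genes code for the RNA of the small and the large subunit of the mitochondrial ribosome. The table gives them only as mitochondrial rRNA, so they are named here by length. The shorter (ENSORLG00000021749, 70 to 1011, 942 bases) was at 731, 1487 and 796 FPKM in mutant 1, 2 and 3, against 1723, 1298 and 3898 FPKM in wild type 1, 2 and 3. The longer (ENSORLG00000021751, 1084 to 2757, 1674 bases) was at 236, 464 and 213 FPKM in mutant 1, 2 and 3, against 623, 444 and 1101 FPKM in wild type 1, 2 and 3. In both, mutant 1 and 3 were below every wild type, while mutant 2 was above wild type 2.

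The mutant mean was 0.436 times the wild-type mean for the shorter rRNA and 0.421 times for the longer. The log2 difference of ENSORLG00000021749 was -1.11 (SE 0.47, adjusted p = 0.725, limma). That of ENSORLG00000021751 was -1.23 (SE 0.42, unadjusted p = 0.0258, adjusted p = 0.599, limma). Without wild type 3 the differences were -0.65 for the shorter and -0.88 for the longer rRNA.

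Relative to the mRNAs of the same library, the rRNAs did not overlap between the groups. Divided by the same mRNA sum, 9.43% of all tested genes did not overlap (2.05% higher and 7.39% lower). The limma fit with equal mitochondrial mRNA sums, chosen after the data were seen, called neither rRNA. Its log2 difference was -1.20 for the shorter (unadjusted p = 0.00435, adjusted p = 0.345, limma). For the longer it was -1.32 (unadjusted p = 0.000717, adjusted p = 0.125, limma). The ratio of the summed rRNA FPKM to the summed mRNA FPKM was 0.033, 0.072 and 0.036 in mutant 1, 2 and 3, against 0.096, 0.081 and 0.140 in wild type 1, 2 and 3. As the groups did not overlap, their order had to stay the same without wild type 3. The difference was then -0.042 in place of -0.059. rRNA made up 4.08%, 8.33% and 4.24% of the mitochondrial reads in mutant 1, 2 and 3, against 10.8%, 9.16% and 14.3% in wild type 1, 2 and 3.

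The ratio of the shorter to the longer rRNA was 3.35 ± 0.34 in the mutant and 3.08 ± 0.41 in wild type (SD, n = 3 each), so both rRNAs varied together between libraries. Mutant 2 and wild type 3, each the highest library of its group in both rRNAs, were also the highest of their groups in the intestine markers given above. Wild type 1 and 2 had higher ratios of rRNA to mRNA than mutant 2 with intestine markers at 3.97 and 2.72 FPKM. The 6 matched liver markers summed to 19.6, 42.0 and 25.6 FPKM in mutant 1, 2 and 3, against 64.6, 63.1 and 283 FPKM in wild type 1, 2 and 3. The 6 libraries thus stood in the same order by this sum as by the ratio of rRNA to mRNA. The single gene tfa gave that order on its own, and apoa1b did not, so the order is not one of liver markers as a set. In tfa every mutant value lay under every wild-type value, which held for 6.45% of all tested genes. How many of all tested genes gave the full order was not counted. In wild type 3 the sum was made up mainly of apoa1b, an apolipoprotein gene, at 152 FPKM, and tfa, a transferrin gene, at 130 FPKM. In the other 5 libraries tfa was the main part, at 17.4 to 39.1 FPKM in mutants and 61.2 and 57.3 FPKM in wild type 1 and 2, with apoa1b at 1.73 to 3.72 FPKM in mutants and 2.81 and 5.50 FPKM in wild type 1 and 2. The liver markers apoa2, fgb, CYP7A1 and hpx lay between 0 and 0.35 FPKM in every library. The part of this RNA and of digestive RNA in the rRNA levels was not tested. Whether rRNA was depleted or poly(A) RNA selected is not given in the sources used here, and either step can set how much of the mitochondrial rRNA is kept.

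The tRNA genes, of 66 to 74 bases each, carried 1476 reads over all 6 libraries. The table does not say which amino acid each serves, so they are given by identifier. No read fell on 5 of the 22 in any library, where a count of 0 allows up to 3 reads, or 2.47 to 3.18 FPKM, in a library. A further 9 had between 1 and 4 reads in all and were not tested. Of the 8 tested, 4 reached the filter of 1 FPKM through a single group. They include ENSORLG00000021752, with 5 reads, all in wild type 3, and ENSORLG00000021756, with 4 reads, all in mutant 3. Such genes had to differ, so no count over the tested tRNA genes is read as a result.

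A pair of neighbours on the minus strand between ND2 and COX1 held 1269 of the 1476 reads. ENSORLG00000021760 (5210 to 5282) was at 79.5, 73.1 and 87.9 FPKM in mutant 1, 2 and 3, against 91.4, 78.1 and 120 FPKM in wild type 1, 2 and 3. ENSORLG00000021761 (5319 to 5384), beyond a gap of 36 bases with no annotated gene, was at 82.6, 126 and 113 FPKM in mutant 1, 2 and 3, against 82.9, 115 and 187 FPKM in wild type 1, 2 and 3. The groups overlapped in both, with log2 differences of -0.25 (SE 0.18) and -0.20 (SE 0.31). ENSORLG00000021767 (7858 to 7930), which starts at the base after COX2, had 22, 17 and 23 reads in mutant 1, 2 and 3, against 15, 15 and 21 reads in wild type 1, 2 and 3.

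In 3 tRNA genes with few reads, all mutant FPKM values lay under all wild-type FPKM values, which held for 6.45% of all tested genes. This count is not read as a result. Of the 3, ENSORLG00000021777 and ENSORLG00000021773 are among the 4 that reached the filter through a single group, here wild type. Both so had to differ, and their differences, intervals and p-values are given as a description. ENSORLG00000021777 (11786 to 11854, plus strand, between ND4 and ND5) had no read in any mutant library, against 8, 7 and 2 reads in wild type 1, 2 and 3. With a floor of 3 reads over the mutant group, and the wild-type reads taken as exact, it was 5.51-fold lower in the mutant. As the error of the wild-type reads is left out, this is not a lower bound. Its log2 difference was -2.52 (SE 0.38, unadjusted p = 0.000285, adjusted p = 0.136, limma). Without wild type 3, the wild-type library with the fewest of these reads, the adjusted p was 0.00563 in limma, under the threshold, for a gene that entered the test through wild type only. limma-voom on the reads gave it an adjusted p of 0.545 with all libraries.

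ENSORLG00000021773 (9975 to 10043, plus strand, between ND3 and ND4L) had 0, 0 and 2 reads in mutant 1, 2 and 3, against 10, 5 and 5 reads in wild type 1, 2 and 3. Over the reads pooled by group, the wild-type level was 9.72 times the mutant level, with an exact 95% counting interval of 2.36 to 85.8 (adjusted p = 0.228, limma). The interval leaves out the spread between libraries, and ENSORLG00000021773 reached the filter through wild type only. ENSORLG00000021784 (15572 to 15641, minus strand), which follows CYTB after another tRNA gene, had 0, 2 and 4 reads in mutant 1, 2 and 3, against 8, 4 and 10 reads in wild type 1, 2 and 3 (adjusted p = 0.647, limma). Mutant 3 and wild type 2 tied at 4 reads there and were apart only after scaling by library size, at 3.49 against 3.74 FPKM. None of the 3 passed the threshold with all libraries, and the flanking mRNAs ND3, ND4L, ND4 and ND5 overlapped between the groups.

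**Figure D5:**
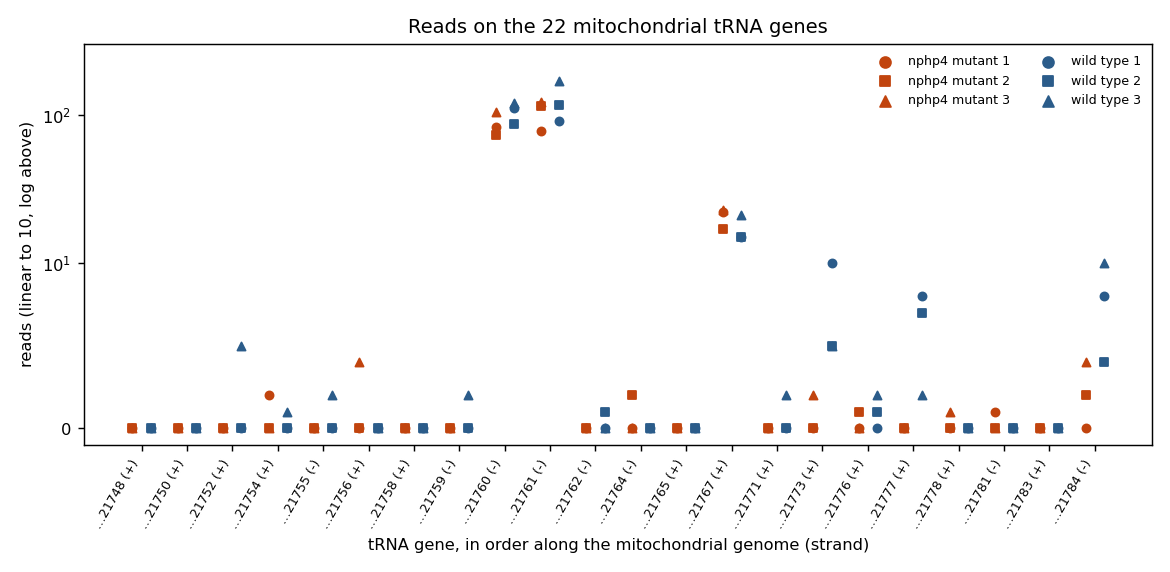
Reads per library on the 22 tRNA genes in their order along the mitochondrial genome, with the last 5 digits of the identifier and the strand (axis linear to 10 reads and logarithmic above). Most genes lie at or near 0, and a pair of minus-strand genes lies between 73 and 169 reads. The 3 genes with lower mutant FPKM lie at 0 to 4 reads in mutants and 2 to 10 reads in wild types. In ENSORLG00000021784 mutant 3 and wild type 2 tie at 4 reads.

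Nuclear genes make the machinery that copies, reads, processes and translates the mitochondrial genome. Of 98 such genes in 5 lists, 84 were matched by name, and 77 were tested. None was called by limma, 1 was higher and 2 were lower at an unadjusted p below 0.05, against 3.32% higher and 3.82% lower over all tested genes. limma-voom on the reads called 0 of all genes. Groups did not overlap in 5 of the 77 genes with higher and 3 with lower values in the mutant, against 7.55% higher and 6.45% lower over all tested genes. The median log2 difference over the 77 was 0.02.

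The core of mitochondrial transcription overlapped between the groups. polrmt, the mitochondrial RNA polymerase, was at 7.26 ± 0.58 FPKM in the mutant and 6.85 ± 1.07 FPKM in wild type, and tfam, which packs mitochondrial DNA and opens its promoters, was at 25.7 ± 2.53 FPKM in the mutant and 25.3 ± 5.10 FPKM in wild type (SD, n = 3 each). tfb2m, a partner of the polymerase, had a log2 difference of -0.14, and MTERF1, known in mammals for binding the mitochondrial DNA just past the rRNA genes, had -0.15. lrpprc and slirp, which bind and stabilise mitochondrial mRNAs in mammals, had log2 differences of 0.05 and 0.10.

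mterf2, a relative of MTERF1, was at 7.0, 11.02 and 6.78 FPKM in mutant 1, 2 and 3, against 2.50, 3.25 and 5.11 FPKM in wild type 1, 2 and 3. Every mutant library was above every wild type. The log2 difference of mterf2 was 1.01 (SE 0.27, unadjusted p = 0.00655, adjusted p = 0.407, limma). ssbp1, which coats single-stranded mitochondrial DNA, averaged 17.2 ± 2.95 FPKM in the mutant and 13.4 ± 1.25 FPKM in wild type (SD, n = 3 each; adjusted p = 0.768, limma). The 2 lower genes, named after their values were seen, were hsd17b10 and mtif3. hsd17b10, in humans also a part of the enzyme that cuts mitochondrial tRNAs at their front end, averaged 10.9 ± 0.94 FPKM in the mutant and 16.5 ± 2.11 FPKM in wild type (log2 difference -0.55, adjusted p = 0.414, limma). mtif3, a factor that starts mitochondrial translation, had a log2 difference of -0.49 (adjusted p = 0.614, limma).

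The nuclear subunits of the respiratory chain and ATP synthase (73 genes in the table, 65 tested) summed to 15885 ± 146 FPKM in the mutant and 15644 ± 1631 FPKM in wild type (SD, n = 3 each). None was called by limma, and 3 were higher and 3 lower at an unadjusted p below 0.05, against 3.32% higher and 3.82% lower over all tested genes. Groups did not overlap in 5 with higher and 4 with lower values in the mutant, against 7.55% and 6.45% over all tested genes. The ratio of mitochondrial to nuclear subunit mRNA was 1.83, 1.71 and 1.81 in mutant 1, 2 and 3, against 1.71, 1.41 and 2.05 in wild type 1, 2 and 3, so the mutants lay within the wild-type range. Without wild type 3 the wild-type mean was 1.56. Mutant 1 and 3 were then above both wild types, and mutant 2 lay just under wild type 1. For complex IV alone, the 3 mitochondrial mRNAs held 21705 ± 1244 FPKM in the mutant and 20852 ± 5901 FPKM in wild type, and the nuclear subunit mRNAs 5454 ± 326 FPKM in the mutant and 5068 ± 398 FPKM in wild type (SD, n = 3 each). Without wild type 3 the wild-type mean was 17514 FPKM for the mitochondrial and 4843 FPKM for the nuclear mRNAs of complex IV, and in both every mutant library was above wild type 1 and 2. The same held for the mitochondrial mRNAs of complex I, III and V. It also held for the sum of all nuclear subunits, with a wild-type mean of 14744 FPKM without wild type 3. The nuclear sums of complex I, II, III and V each overlapped with wild type 1 and 2. With all libraries, every one of these sums overlapped between the groups. For the mitochondrial mRNAs of complex IV, wild type 3 was at 27528 FPKM, above every mutant library. How many of all tested genes separate the mutants from wild type 1 and 2 alone was not counted. The sums of a library also share its scaling, so they are not independent. Genes for import, pores and the inner membrane of mitochondria (20 tested) had a median log2 difference of -0.04, with none called.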

How the data were processed

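The authors deposited 1 FPKM value per gene and library, together with the gene length in bases, another quantity, which the authors used as divisor. Per the submitters' processing notes, the tools named, without their roles, were DESeq2 1.20.0, featureCounts 1.5.0-p3, HISAT2 2.0.5, fastp and CASAVA 1.8; build, annotation and strand setting are not given in the sources used here. The start and end of all 13 protein genes equal those in RefSeq for ASM223467v1. FPKM times length gave whole multiples of 1 read for 100% of values above 0 (within 0.01 read), so reads were recovered. Intervals cover counting error only, and floors only that of a count of 0. 1 nuclear row, on chromosome 5 and with 1 read in all, matched a mitochondrially encoded protein.

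The comparison of mutant with wild type used limma (version 3.58.1, R 4.3.3) on log2(FPKM + 1), with intensity trend, robust moderation and no covariate, over genes whose mean reached 1 FPKM in the mutant or in wild type. The scale understates differences of low genes. SE is moderated. The test was tried on simulated reads. p-values measure the spread between these libraries. Chi-square of reads between replicates was 17.0 to 149 per gene, so no library was a copy of another. Members, lists and the rule for names (all mitochondrial genes above the filter, nphp4, the core transcription and replication genes, called genes) were chosen with earlier results of these data known. Of the core names, mterf4 and tefm were not matched, ppargc1a was below the filter, and tfb1m, mterf3, polg, polg2, twnk and nrf1 had log2 differences between -0.15 and 0.19. Ratios named as 12S and 16S in the plan are given by gene length.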

Additional observations from a re-analysis of the deposited data

How the results depend on the processing

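Low counts limit the tRNA genes, most of which had under 30 reads in all libraries together, and 3 libraries a group limit every comparison. The cause of the low tRNA counts was not tested. Of the 15203 genes tested by limma, 9 were called in all. The count was 14 when scaled to total reads on genes, 14 when scaled to reads on nuclear genes, 44 with equal sums of the 13 mitochondrial mRNAs (a scaling chosen after the data were seen), 5 at an FDR of 0.01 and 0 in limma-voom, where 1050 genes had an unadjusted p below 0.05. Leaving out a library gave 2 to 18. The count of mitochondrial genes called by limma was 0 in these settings, also with the pseudocount of 0.1, the other filters, TMM and the replicate block, and 0 to 1 when a library was left out. The 1 was ENSORLG00000021777 without wild type 3.

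No pairing by replicate number was seen. The deviations of same-numbered libraries correlated at 0.31, -0.56 and -0.42, and those of other-numbered libraries at -0.44 to 0.61. With 3 libraries a group, such correlations cannot exclude a batch shared by number. With the replicate block, 6 genes were called and 0 mitochondrial genes.

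The log2 differences of the 23 tested mitochondrial genes kept their sign in 13 genes, including both rRNAs, ND2, COX1 and COX3. The other 10 changed sign in some setting, the cause of which was not tested. When scaled to total reads and to nuclear reads, the values were 0.0034 and 0.0027 for ATP8, 0.049 and 0.048 for ND4L, 0.023 and 0.022 for ND6, and 0.037 and 0.036 for CYTB. TMM gave 0.0054 for ND4L. Equal mitochondrial mRNA sums gave -0.067 for ND3 and -0.052 for ND4. Leaving out libraries gave -0.22 to 0.083 for ND1, -0.47 to 0.11 for ENSORLG00000021761, -0.060 to 0.32 for COX2, -0.19 to 0.061 for ATP8, -0.012 to 0.34 for ATP6, -0.066 to 0.19 for ND3, -0.096 to 0.092 for ND4L, -0.037 to 0.16 for ND4, -0.12 to 0.13 for ND6 and -0.18 to 0.24 for CYTB.

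As a share of mitochondrial mRNA reads in place of FPKM, the COX1 difference was -5.98 percentage points, since reads weight long genes more. The differences in the shares of COX1, COX3 and ND2 and in the ratio of rRNA to mRNA kept their sign whichever library was left out. This had to hold, as the groups did not overlap in any of them. On the scale of reads, the difference in the mitochondrial share was -0.05 percentage points, and 0.13 for the mRNAs alone. On the FPKM scale it was 0.20 with all genes, 0.45 without the rRNAs and 0.16 without digestive gland genes.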
